A study of Mus musculus with 9 samples.

Results

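Transcripts of 7 cytokine receptor chains, Il7r, Il4ra, Il21r, Il6ra, Il6st, Il10ra and Ifngr1, were followed by RNA sequencing in CD8+ T cells from the spleen of female C57BL/6 mice aged 6 weeks. They were chosen by gene symbol from the 20418 symbols of the count tables, and all 7 were found, each with 1 transcript. Of the 9 libraries, 1 came from untreated cells, 4 from cells treated with IL-2 (interleukin-2) and 4 from cells treated with IL-15 (interleukin-15). The cytokines were given at 1 nM and at 500 nM, and cells were taken after 4 h and 24 h of each. All groups share the strain, sex, age and organ, and the labels name no cell sorting and no genetic change. Each library was made from the pooled RNA of 3 samples treated alike, so animals or cultures within a condition cannot be compared. No condition has a second library. The spread behind every test therefore comes from the factorial layout of the libraries, and p-values measure only that spread. No untreated library was labelled with a time, so time since the cells were taken and exposure to cytokine cannot be told apart.

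IL-2 and IL-15 share the receptor chains IL-2Rβ and the common gamma chain (Il2rg), and signal through the kinases JAK1 and JAK3 to STAT5. The 7 chains belong to other cytokines that T cells read. IL-7Rα, IL-4Rα and IL-21R each pair with the same common gamma chain, which makes them neighbours of IL-2 and IL-15 at the membrane. IL-7Rα carries the survival signal of resting naive and memory T cells, IL-4Rα signals through STAT6, and IL-21R mainly through STAT3. IL-6Rα binds IL-6 and hands it to the signalling chain gp130 (Il6st), which also serves leukaemia inhibitory factor, oncostatin M and interleukin-27. IL-10Rα pairs with IL-10Rβ and signals through STAT3. IFN-γ receptor 1 pairs with IFN-γ receptor 2.

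The starts of 3 of these genes are shown. Il7r and Il6ra were lower at 500 nM than at 1 nM, and the change of Il6st with dose turned between 4 h and 24 h, as given further on. The sequences are RefSeq promoter windows on GRCm38.p6, matched by symbol. A window was found for 6 of the 7 chains, and Il10ra was the one without. The counts were made on mm8, so only gene names link windows and counts. As printed, windows hold only bases before the gene's outermost annotated start, 5′ to 3′ on the gene's strand. Capitals mark a match to a searched motif.
Il7r, chr15:9529942-9530126, minus strand: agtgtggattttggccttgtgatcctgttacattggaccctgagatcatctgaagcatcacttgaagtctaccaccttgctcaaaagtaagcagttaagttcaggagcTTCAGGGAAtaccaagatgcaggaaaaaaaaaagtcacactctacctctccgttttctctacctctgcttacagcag
Il6ra, chr3:89913197-89913446, minus strand: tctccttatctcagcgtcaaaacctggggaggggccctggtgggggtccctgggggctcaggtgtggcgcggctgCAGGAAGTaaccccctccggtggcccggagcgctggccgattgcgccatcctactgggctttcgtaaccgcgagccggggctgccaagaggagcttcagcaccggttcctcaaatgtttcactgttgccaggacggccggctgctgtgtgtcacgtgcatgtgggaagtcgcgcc
Il6st, chr13:112463820-112464069, plus strand: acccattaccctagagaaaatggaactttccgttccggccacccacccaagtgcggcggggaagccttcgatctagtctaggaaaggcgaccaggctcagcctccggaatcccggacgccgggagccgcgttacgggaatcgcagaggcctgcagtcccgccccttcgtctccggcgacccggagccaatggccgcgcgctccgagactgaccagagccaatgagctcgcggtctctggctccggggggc

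Motifs were searched on both strands in the first 250 bases of each of 32851 windows. These bases lie before the start that the window was built on. The STAT motif TTCNNNGAA lies in the Il7r window and in 7.02% of all windows. The ETS motif CAGGAAGT lies in the windows of Il6ra and Il7r and in 2.69% of all windows. For Il7r, the 185 bases printed stop at the outermost annotated start of the gene. Its ETS match reaches past that start and is not printed in full. The forkhead motif GTAAACA was found for Il21r and in 3.17% of windows. The interferon response motif GAAANNGAA was found for none of the 6 and in 7.13% of windows. Il6st held no match. These matches describe letters in a window and are not binding sites.

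Per length, Ifngr1 was the most abundant chain, with a median of 477 RPKM (reads per kilobase of exon, scaled to library size, as the authors deposited them) over the 9 libraries. Il4ra followed at 63.1 RPKM and Il7r at 29.3 RPKM. Il10ra at 18.7 RPKM and Il21r at 18.1 RPKM lay next to each other, as did Il6ra at 11.1 RPKM and Il6st at 10.6 RPKM, and the ranges of each pair overlapped. The order was not fixed, because Il7r ran from 6.28 to 120 RPKM and so lay above or below Il4ra, Il10ra and Il21r depending on the library. From here on, levels of 1 gene across libraries are CPM, counts scaled to library size with TMM factors. The span between the lowest and highest library on the log2 CPM scale was 4.24 for Il7r, 2.50 for Il6st, 2.31 for Ifngr1, 1.91 for Il6ra, 1.87 for Il10ra, 0.99 for Il21r and 0.81 for Il4ra. With 1 transcript kept per symbol, libraries held 27158143 to 48799962 counts, and the 7 chains had 884 to 116415 counts each. Averaged over the upper and lower side, the 95% exact Poisson interval reached at most 6.65% from a level. These intervals cover counting error only. All 7 passed the filter on low counts.

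**Figure D1:**
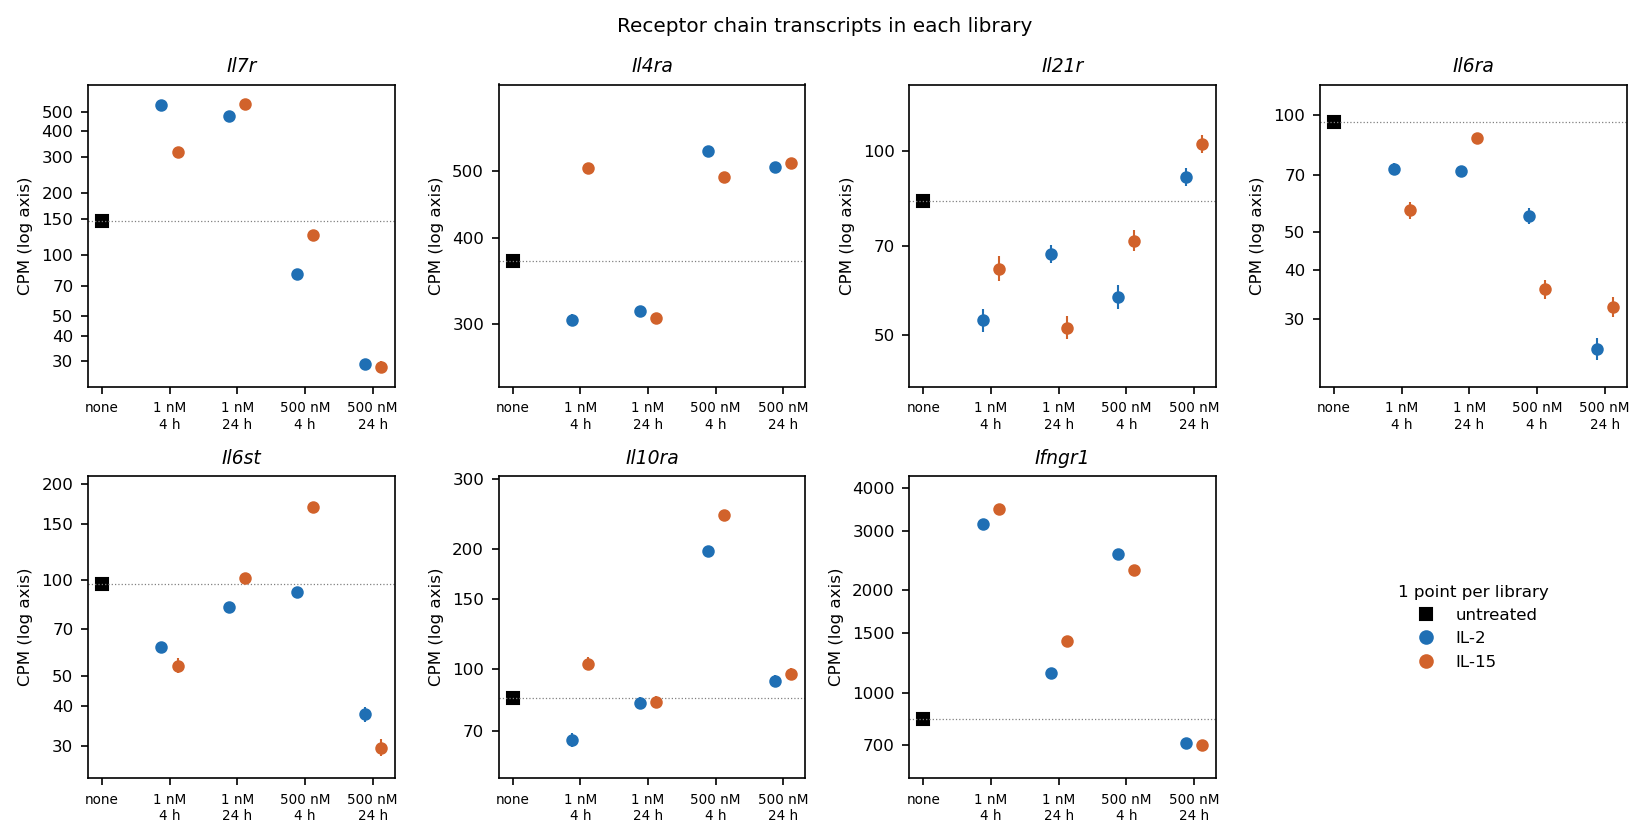
Level of each receptor chain in CPM on a log axis (each panel has its own range), 1 point per library, with 95% Poisson intervals of the counts, many of them smaller than the point. The dotted line is the untreated library. Il7r lies above it in the 4 libraries at 1 nM and below it in the 4 at 500 nM.

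Il7r had the widest range of the 7 chains, and dose separated its libraries. The untreated cells had 146 CPM. At 1 nM, Il7r stood at 540.0 CPM with IL-2 and 319 CPM with IL-15 at 4 h, and at 475 CPM and 543 CPM at 24 h. At 500 nM it stood at 80.0 CPM with IL-2 and 125 CPM with IL-15 at 4 h, and at 29.1 CPM and 28.2 CPM at 24 h. Every library at 1 nM was thus higher than the untreated one, every library at 500 nM was lower, and the doses did not overlap. The highest level was 19.3-fold the lowest. Over both times, 500 nM against 1 nM lowered Il7r by a log2 fold change of -3.12 ± 0.45 (SE), with an adjusted p of 0.0035 (edgeR quasi-likelihood test, Benjamini-Hochberg over 13479 genes, as for every adjusted p here). The fall was -2.07 ± 0.28 at 4 h (adjusted p 0.00058) and -4.15 ± 0.30 at 24 h (adjusted p 5.6e-06). The difference between these, the dose by time interaction, was -2.08 ± 0.38 on the log2 scale (adjusted p 0.0078). Between 4 h and 24 h Il7r fell further at 500 nM, by a log2 change of -1.84 ± 0.28 (adjusted p 0.00053), while at 1 nM the change of 0.24 ± 0.27 did not pass the test.

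Il4ra had the narrowest range. It stood at 370.1 CPM untreated. With IL-2 it was at 305 CPM and 313 CPM at 1 nM for 4 h and 24 h, and at 534 CPM and 507 CPM at 500 nM. With IL-15 it was at 505 CPM and 306 CPM at 1 nM, and at 490.2 CPM and 513 CPM at 500 nM. The 3 low libraries were all at 1 nM, and IL-15 at 1 nM for 4 h lay with the libraries at 500 nM, so the doses overlapped. The dose by time interaction of 0.36 ± 0.31 did not pass the test (adjusted p 0.54). Over both times the log2 fold change with dose was 0.54 ± 0.19, which did not pass the test (adjusted p 0.081). It passed with DESeq2 (adjusted p 0.029), with a dose by time term (0.018), with all interactions (0.0034) and without IL-15 at 1 nM for 4 h (log2 change 0.74, adjusted p 0.016). Within 24 h, Il4ra was higher at 500 nM by 0.72 ± 0.22 (adjusted p 0.025), and at 4 h the difference of 0.36 ± 0.22 did not pass, except without IL-15 at 1 nM for 4 h (0.77, adjusted p 0.049). The call at 24 h was lost without the library of IL-2 at 500 nM for 24 h (adjusted p 0.22), without IL-15 at 1 nM for 24 h (0.15) or without IL-15 at 500 nM for 24 h (0.088).

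Il21r, which lies directly beside Il4ra on chromosome 7, stayed between 51.4 CPM and 103 CPM. Untreated cells had 82.7 CPM. With IL-2 it was at 52.9 CPM and 68.0 CPM at 1 nM for 4 h and 24 h, and at 57.7 CPM and 90.7 CPM at 500 nM. With IL-15 it was at 64.2 CPM and 51.4 CPM at 1 nM, and at 71.4 CPM and 103 CPM at 500 nM. The 2 libraries at 500 nM for 24 h were the highest, the other 6 treated libraries were below untreated, and the doses overlapped. At 24 h the higher dose raised Il21r by 0.69 ± 0.21 on the log2 scale (adjusted p 0.029). This call, too, was lost without IL-2 at 500 nM for 24 h (adjusted p 0.13), IL-15 at 1 nM for 24 h (0.28, with the change reduced to 0.41) or IL-15 at 500 nM for 24 h (0.17). Without IL-2 at 1 nM for 24 h the change was 1.04 and passed (adjusted p 0.0078). At 4 h the log2 difference was 0.14 ± 0.21, and over both times it was 0.41 ± 0.19 (adjusted p 0.17). Neither passed, but the second passed with all interactions (adjusted p 0.028). The dose by time interaction of 0.55 ± 0.30 did not pass (adjusted p 0.31).

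Il6ra, the ligand-binding chain for IL-6, was highest in untreated cells, at 95.7 CPM. At 1 nM it stood at 72.6 CPM with IL-2 and 56.8 CPM with IL-15 for 4 h, and at 71.6 CPM and 87.0 CPM for 24 h. At 500 nM it stood at 55.1 CPM and 35.6 CPM for 4 h, and at 25.05 CPM and 32.2 CPM for 24 h. All 8 treated libraries were below the untreated one, and the doses did not overlap, although the nearest libraries were only 56.8 CPM and 55.1 CPM. The log2 fold change with dose was -0.99 ± 0.26 over both times (adjusted p 0.032), -0.52 ± 0.25 at 4 h (not past the test) and -1.47 ± 0.26 at 24 h (adjusted p 0.0010). The dose by time interaction of -0.95 ± 0.36 did not pass (adjusted p 0.12), except with all interactions (adjusted p 0.041). The call over both times was lost when any of 6 libraries was left out (adjusted p 0.066 to 0.11; they are the 6 other than IL-2 at 500 nM for 4 h, IL-15 at 1 nM for 4 h and untreated), with log2 changes from -0.75 to -1.07. The call at 24 h remained in every such fit, with an adjusted p of at most 0.026.

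Il6st, which encodes gp130, changed direction with time. Untreated cells had 97.4 CPM. At 4 h it stood at 61.4 CPM with IL-2 and 53.8 CPM with IL-15 at 1 nM, and at 91.8 CPM and 170.0 CPM at 500 nM. At 24 h it stood at 82.0 CPM and 101.4 CPM at 1 nM, and at 37.8 CPM and 29.7 CPM at 500 nM. At 4 h both libraries at 500 nM were above both at 1 nM, and at 24 h both were below. The higher dose raised Il6st by 1.15 ± 0.27 on the log2 scale at 4 h (adjusted p 0.016) and lowered it at 24 h, by a log2 change of -1.42 ± 0.27 (adjusted p 0.0017). The interaction was -2.58 ± 0.38 (adjusted p 0.0032), the largest in size among the 7 chains, and over both times the log2 change of -0.14 ± 0.51 did not pass. The rise at 4 h rests on few libraries: it was lost without IL-15 at 500 nM for 4 h (log2 change 0.64, adjusted p 0.26), without IL-15 at 1 nM for 4 h (0.91, adjusted p 0.18) or without IL-2 at 1 nM for 4 h (1.39, adjusted p 0.055). The interaction and the fall at 24 h passed with any 1 library left out (adjusted p at most 0.034 and 0.046).

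Il10ra, the ligand-binding chain for IL-10, had its 2 high values at 500 nM for 4 h. Untreated cells had 84.5 CPM. At 4 h it stood at 66.5 CPM with IL-2 and 103 CPM with IL-15 at 1 nM, and at 197 CPM and 244 CPM at 500 nM. At 24 h it stood at 82.3 CPM and 82.6 CPM at 1 nM, and at 93.2 CPM and 97.4 CPM at 500 nM. The other 7 libraries, untreated included, thus lay between 66.5 CPM and 103 CPM. The higher dose raised Il10ra by 1.39 ± 0.20 on the log2 scale at 4 h (adjusted p 0.00091). At 24 h the log2 difference was 0.21 ± 0.20 and did not pass, and at 500 nM the level fell by 1.20 ± 0.20 on the log2 scale from 4 h to 24 h (adjusted p 0.0010). Over both times the log2 difference with dose was 0.80 ± 0.26 and did not pass (adjusted p 0.064), but it passed with DESeq2 (0.013), limma-voom (0.043), a dose by time term (0.00099), all interactions (8.3e-05) and without IL-2 at 1 nM for 24 h (0.047). The interaction of -1.19 ± 0.28 passed the test (adjusted p 0.024). It was lost without IL-2 at 1 nM for 4 h (adjusted p 0.062), IL-2 at 1 nM for 24 h (0.066), IL-2 at 500 nM for 24 h (0.087), IL-15 at 500 nM for 4 h (0.074) or IL-15 at 500 nM for 24 h (0.16), with log2 values from -0.94 to -1.32.

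Ifngr1, the ligand-binding chain for IFN-γ, was high at 4 h. Untreated cells had 839 CPM. At 4 h it stood at 3133 CPM with IL-2 and 3473 CPM with IL-15 at 1 nM, and at 2559.6 CPM and 2294 CPM at 500 nM. At 24 h it stood at 1139 CPM and 1417 CPM at 1 nM, and at 713 CPM and 699 CPM at 500 nM. The times did not overlap, and the 2 libraries at 500 nM for 24 h were below the untreated one. From 4 h to 24 h the log2 change was -1.58 ± 0.17 over both doses (adjusted p 0.0035), -1.37 ± 0.18 at 1 nM (adjusted p 0.0024) and -1.78 ± 0.18 at 500 nM (adjusted p 4.8e-05). The higher dose lowered Ifngr1, with a log2 change of -0.65 ± 0.17 over both times (adjusted p 0.031) and of -0.85 ± 0.18 at 24 h (adjusted p 0.0032), and the change at 4 h of -0.44 ± 0.18 did not pass. The dose by time interaction of -0.41 ± 0.25 did not pass either (adjusted p 0.36). The call over both times was lost without any of the same 6 libraries as for Il6ra (adjusted p 0.054 to 0.15). The call at 24 h was lost without IL-2 at 500 nM for 24 h (adjusted p 0.0504), IL-15 at 1 nM for 24 h (0.055) or IL-15 at 500 nM for 24 h (0.10).

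**Figure D2:**
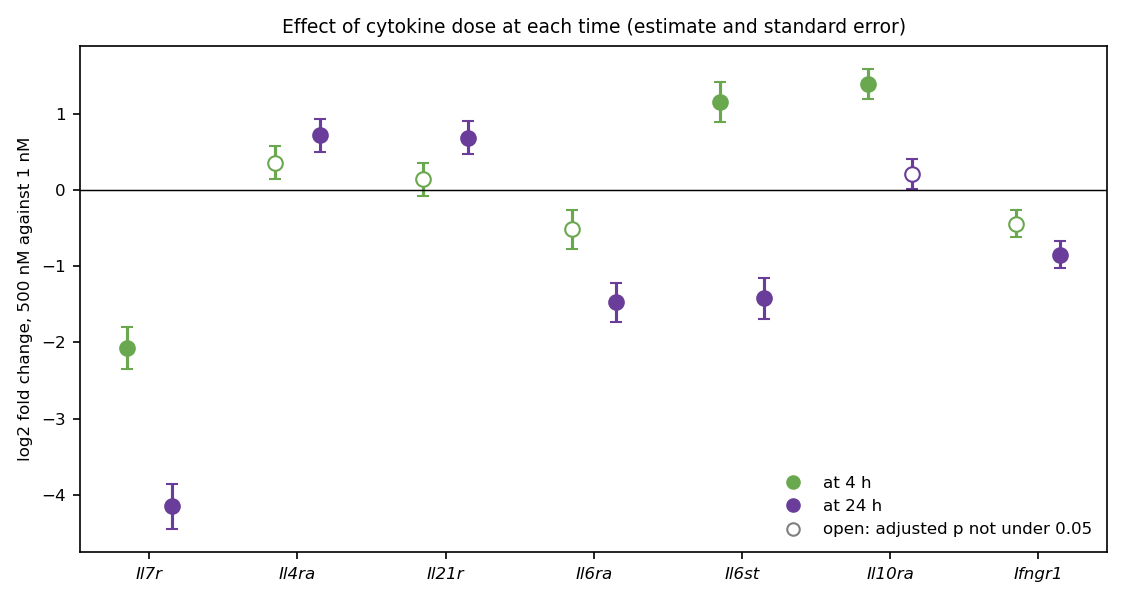
Log2 fold change of 500 nM against 1 nM at 4 h and at 24 h for each chain, with standard errors; filled points passed an adjusted p of 0.05. Il7r is lowered at both times, and Il6st lies above 0 at 4 h and below 0 at 24 h.

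Set against all genes, the members' counts read as follows. For 500 nM against 1 nM over both times, 0 of 7 chains were higher and 3 of 7 lower, where 7.63% and 8.47% of the 13479 genes tested were. At 4 h, 2 of 7 were higher and 1 lower, against 5.42% and 4.63% of genes. At 24 h, 2 of 7 were higher and 4 lower, against 15.6% of genes in each direction. For 24 h against 4 h, 0 of 7 were higher and 1 lower, against 2.69% and 2.62% of genes. At 1 nM alone that was 0 higher and 1 lower, against 1.51% and 1.38%, and at 500 nM 0 higher and 4 lower, against 13.3% and 12.9%. The interaction was positive for 0 and negative for 3 of 7 chains, against 4.06% and 4.76% of genes. The median log2 fold change with dose at 24 h was -0.85 over the 7 chains and -0.04 over all genes, and at 4 h it was 0.14 and -0.02.

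Against untreated cells, each of the 4 conditions had its own list of chains past the test. At 1 nM for 4 h, Ifngr1 was higher by 1.98 ± 0.24 on the log2 scale (adjusted p 0.00087) and Il7r by 1.56 ± 0.35 (adjusted p 0.023), so 2 of 7 chains were higher and 0 lower, against 2.75% and 3.55% of genes. At 1 nM for 24 h only Il7r passed among the 7, higher by 1.802 ± 0.35 (adjusted p 0.028), against 0.861% of genes higher and 0.786% lower. At 500 nM for 4 h, Ifngr1 was higher by 1.54 ± 0.23 (adjusted p 0.00087) and Il10ra by 1.38 ± 0.26 (adjusted p 0.0033), and Il6ra was lower, at -1.09 ± 0.30 (adjusted p 0.026); 7.92% of genes were higher and 8.47% lower. At 500 nM for 24 h, 3 of 7 were lower: Il7r at -2.35 ± 0.31 (adjusted p 0.00035), Il6ra at -1.74 ± 0.30 (adjusted p 0.0014) and Il6st at -1.52 ± 0.31 (adjusted p 0.0039), against 12.8% of genes higher and 12.3% lower. Il4ra and Il21r passed in none of the 4. Averaged over times in the main-effects fit, no chain passed at either dose in the main edgeR fit, with 0% of genes higher and 0.0742% lower at 1 nM and 2.31% higher and 3.98% lower at 500 nM. At 1 nM, Ifngr1 passed with DESeq2, and Il7r and Ifngr1 passed with a dose by time term or with all interactions. Over all 13479 genes, the number passing rose with these 2 terms as well, from 10 to 589 and 973 at 1 nM. At 500 nM it rose from 847 to 2916 and 3367. At 500 nM, Il6ra passed with DESeq2, limma-voom, upper-quartile scaling, a mean of at least 50 counts, edgeR's newer deviances and without any of 3 libraries (IL-2 at 500 nM for 4 h, IL-15 at 1 nM for 4 h or 24 h), and 4 chains passed with interaction terms.

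These 4 comparisons share the 1 untreated library, whose own deviation enters each of them. Il7r at 1 nM for 4 h lost its call without IL-2 at 1 nM for 4 h (log2 change 0.995, adjusted p 0.11). Il7r at 1 nM for 24 h lost it without either library of that condition (adjusted p 0.061 without IL-2 and 0.052 without IL-15). Il6ra at 500 nM for 4 h lost it without IL-15 at 500 nM for 4 h (-0.75, adjusted p 0.20). Il6st at 500 nM for 24 h lost it without IL-15 at 500 nM for 24 h (-1.18, adjusted p 0.054).

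**Figure D3:**
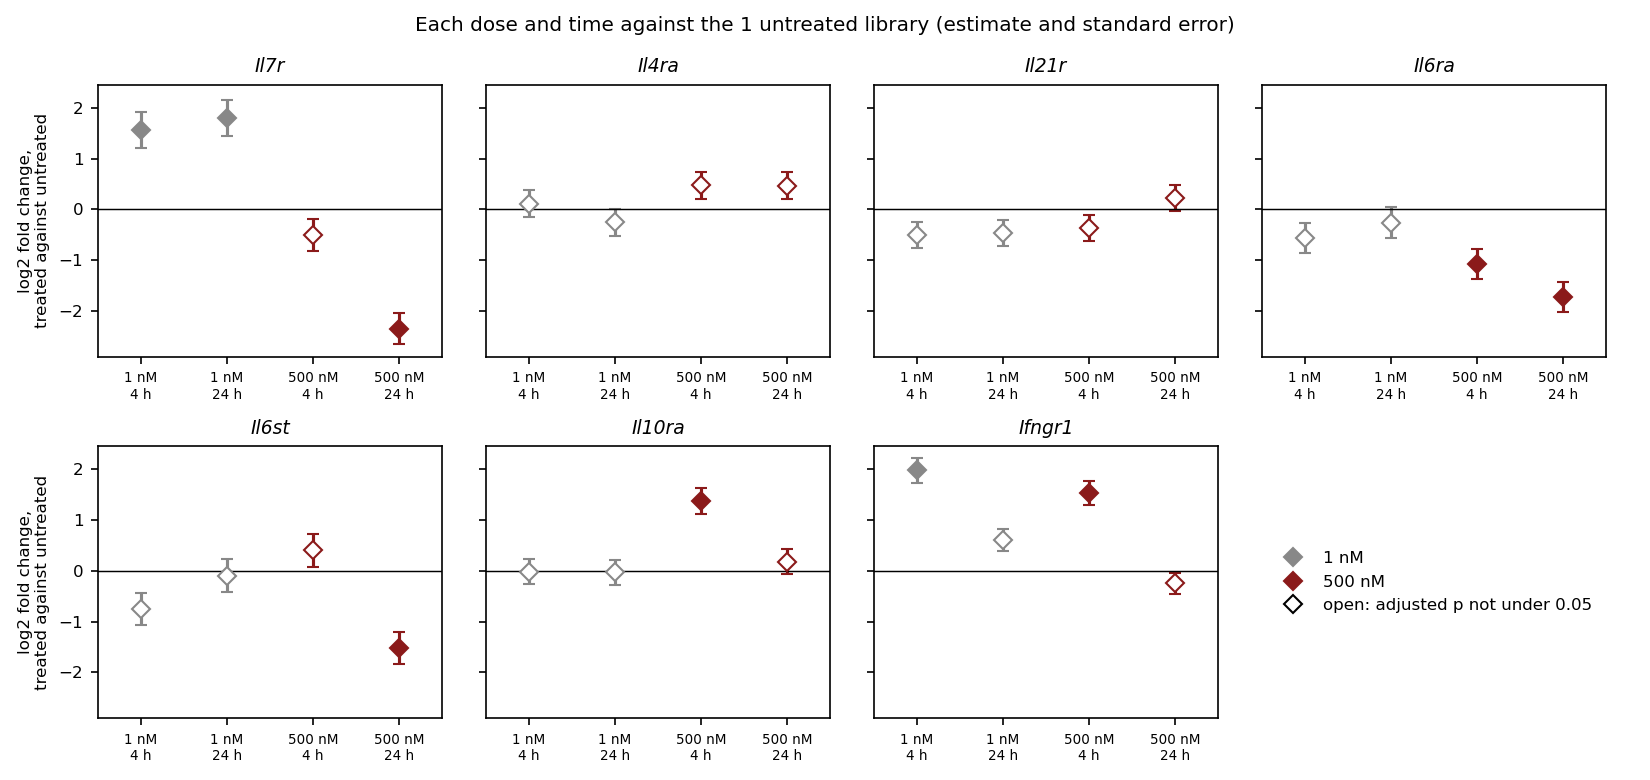
Log2 fold change of each dose and time against the untreated library, with standard errors, for each chain; filled points passed an adjusted p of 0.05. Il7r is raised at 1 nM at both times and lowered at 500 nM for 24 h, and Ifngr1 is raised at 4 h at both doses.

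The series set IL-15 beside IL-2 at matched dose and time, and no chain differed between them past the test. The log2 fold change of IL-15 against IL-2 ran from -0.10 ± 0.25 for Il6ra to 0.34 ± 0.47 for Il6st, with an adjusted p of 1 for all 7. The background was 0% of genes: edgeR called 0 of 13479, with 125 at an unadjusted p under 0.05, DESeq2 called 2 and limma-voom 0. The cytokine by dose interaction passed for 0 of 7 chains and 0% of genes (151 at an unadjusted p under 0.05; 0 by DESeq2), and the cytokine by time interaction for 0 of 7 and 0% (189 at an unadjusted p under 0.05; 0 by DESeq2). Over the 28 matched pairs of 7 chains, IL-15 was the higher in 17 and the lower in 11, with a median difference of 1.23-fold either way and none reaching 2-fold. The widest were Il6st at 500 nM for 4 h, 1.85-fold higher with IL-15, Il7r at 1 nM for 4 h, 1.69-fold lower with IL-15, and Il4ra at 1 nM for 4 h, 1.66-fold higher with IL-15. With 1 library per condition these pair differences have no replicate check, and a p that misses the threshold does not show that the cytokines act alike.

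The receptors work as pairs, so the partner chains were read beside the 7. Il2rg, the common gamma chain, was higher at 500 nM by 0.62 ± 0.17 on the log2 scale (adjusted p 0.039), while its partner Il7r was lower. In deposited RPKM, Il2rg was 3.17 times Il7r untreated, 0.867 to 1.63 times at 1 nM, 8.32 to 9.23 times at 500 nM for 4 h and 21.7 to 24.5 times at 500 nM for 24 h. Il10rb was higher at 500 nM by 0.56 ± 0.16 (adjusted p 0.042), and stayed above Il10ra in every library, with Il10ra at 0.204 to 0.492 times Il10rb. Ifngr2 was lower at 500 nM, with a log2 change of -0.81 ± 0.17 (adjusted p 0.013). Ifngr1 exceeded Ifngr2 in every library, by 12.3 times untreated, 31.9 to 38.3 times at 4 h and 13.8 to 17.4 times at 24 h. Il6st was below Il6ra in 7 libraries, at 0.518 to 0.926 times it, and above it in the 2 at 500 nM for 4 h, at 1.02 times with IL-2 and 2.93 times with IL-15. Il13ra1, which joins IL-4Rα in the receptor shared with IL-13, was at most 1.40 RPKM in any library.

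**Figure D4:**
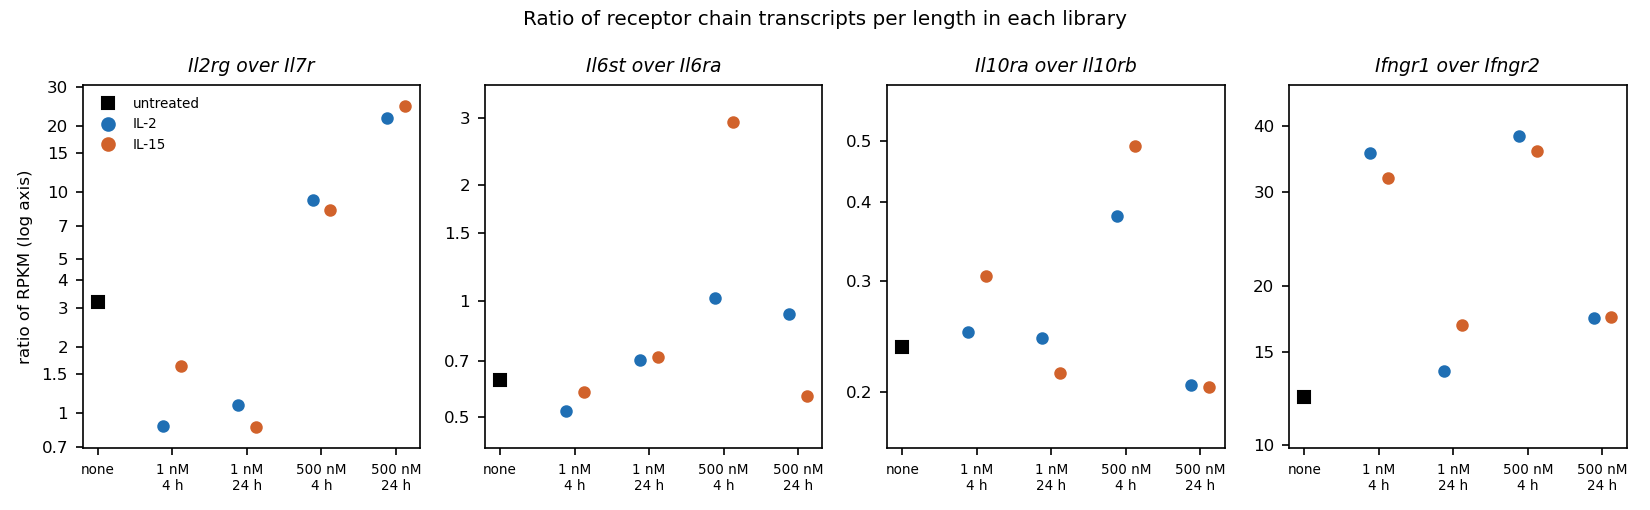
Ratio of the deposited RPKM of chains that sit in 1 receptor, per library, on log axes with a range of their own. The ratio of Il2rg to Il7r is lowest at 1 nM and highest at 500 nM for 24 h, and that of Ifngr1 to Ifngr2 is highest at 4 h.

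Of 30 partner and other cytokine receptor genes, 22 passed the filter, and 7 were higher and 3 lower at 500 nM over both times, where 7.63% and 8.47% of all genes were. The largest rises were Il12rb1 (log2 change 4.06 ± 0.31, adjusted p 0.00047) and Il12rb2 (3.58 ± 0.62, adjusted p 0.0069), the chains of the IL-12 receptor, Il2ra (2.13 ± 0.55, adjusted p 0.031), the high-affinity chain of the IL-2 receptor, and Il15ra (1.67 ± 0.42, adjusted p 0.03), the high-affinity chain of the IL-15 receptor. Among the falls was Il11ra1 (-1.56 ± 0.28, adjusted p 0.0078), a ligand-binding chain that uses gp130. At 24 h the list had 4 higher and 6 lower, against 15.6% of all genes in each direction, and the median log2 change of its 22 tested genes was -0.33 beside -0.04 for all genes.

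Among 16 ligands of the 7 receptors, 9 passed the filter, and 3 were higher and 1 lower at 500 nM over both times, against 7.63% and 8.47% of all genes. Ifng, the ligand of Ifngr1, stood at 0.535 RPKM untreated, 0.438 to 5.18 RPKM at 1 nM and 32.3 to 182 RPKM at 500 nM, a log2 change with dose of 6.16 ± 0.90 (adjusted p 0.0037). The 500 nM range differed between cytokines and times in no common order: 51.9 RPKM with IL-2 and 182 RPKM with IL-15 at 4 h, and 154 RPKM and 32.3 RPKM at 24 h. Lif (6.65 ± 0.44, adjusted p 0.00036) and Osm (3.78 ± 0.41, adjusted p 0.0012), which signal through gp130, were higher, and Clcf1 (-1.60 ± 0.21, adjusted p 0.0026), also a gp130 ligand, was lower. Il21 had 0 counts in all 9 libraries, Il4 had 2 counts in 1 library and Il7 had 8 counts in 1 library. Il6 reached at most 0.567 RPKM and Il10 at most 1.498 RPKM in a library.

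Of 11 Janus kinase and STAT genes, 3 were higher and 2 lower at 500 nM over both times, beside 7.63% and 8.47% of all genes. Stat2 (1.68 ± 0.37, adjusted p 0.018), Jak3 (1.28 ± 0.21, adjusted p 0.0058), the kinase on the common gamma chain, and Stat3 (0.97 ± 0.27, adjusted p 0.041) were higher. Jak1 (-0.86 ± 0.19, adjusted p 0.018), which all 7 receptors use, was lower. Stat3, the main STAT of gp130 and IL-10Rα, was higher at 500 nM by 1.60 ± 0.20 at 4 h (adjusted p 0.00041), with an interaction of -1.26 ± 0.28 (adjusted p 0.019). Stat6, the main STAT of IL-4Rα, stood at 26.7 RPKM untreated, 36.8 to 41.3 RPKM at 1 nM, 38.5 to 38.6 RPKM at 500 nM for 4 h and 20.2 to 22.7 RPKM at 500 nM for 24 h.

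The feedback inhibitors of cytokine signalling had 3 of 13 higher and 1 lower with dose over both times, beside 7.63% and 8.47% of all genes. Cish (3.12 ± 0.43, adjusted p 0.0029), Socs1 (2.31 ± 0.20, adjusted p 0.00075) and Socs2 (1.14 ± 0.22, adjusted p 0.011) were higher, and Pias3 (-0.83 ± 0.20, adjusted p 0.026) was lower. Socs3, which binds gp130 and curbs its signal, was higher at 500 nM at 4 h (1.34 ± 0.24, adjusted p 0.0033). At 24 h its log2 difference of 0.34 ± 0.23 did not pass (adjusted p 0.31), and neither did its interaction of -0.99 ± 0.33 (adjusted p 0.085).

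Of 15 genes named for control of Il7r transcription or for shedding of IL-6Rα, 5 were lower and 0 higher at 500 nM over both times, beside 8.47% and 7.63% of all genes. They were Tcf7 (-2.42 ± 0.18, adjusted p 0.00047), Klf2 (-1.995 ± 0.37, adjusted p 0.0094), Lef1 (-1.53 ± 0.18, adjusted p 0.0017), Ets1 (-1.08 ± 0.18, adjusted p 0.0062) and Foxo1 (-0.88 ± 0.20, adjusted p 0.020). Foxo1 binds the Il7r locus and sustains its transcription in T cells. It stood at 34.2 RPKM untreated, 18.1 to 33.9 RPKM at 1 nM and 12.7 to 14.1 RPKM at 500 nM. Tcf7, Lef1 and Klf2 mark naive and memory T cells. The dose by time interaction was negative for 3 of the 15 genes and positive for 0, beside 4.76% and 4.06% of all genes. Klf2 was among them (-1.94 ± 0.24, adjusted p 0.0013), with the sign that Il7r had. A link of these genes to Il7r was not tested. With dose over both times, Gfi1, a repressor of Il7r, gave -0.57 ± 0.22 (adjusted p 0.11) and did not pass. Adam10 (0.02 ± 0.22, adjusted p 0.98) and Adam17 (-0.15 ± 0.16, adjusted p 0.55), the proteases that cleave IL-6Rα from the cell surface, did not pass either. Of 10 naive and memory genes, 4 were lower and 2 higher with dose over both times, beside 8.47% and 7.63% of all genes. S1pr1 (-2.02 ± 0.29, adjusted p 0.0034), the receptor for exit from lymphoid organs, and Dapl1 (-1.53 ± 0.37, adjusted p 0.026) were lower, and Igfbp4 (2.01 ± 0.42, adjusted p 0.014) and Bcl2 (1.08 ± 0.28, adjusted p 0.034) were higher.

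For the 3 chains spanning at least 2 on the log2 CPM scale, the genes with the most similar profile were sought by Pearson correlation over the 9 libraries, among 2898 genes with a span as wide. The libraries share their doses and times, so these r values describe a shared profile over 9 points. For Il7r they were Pcsk1 (r 0.990), Abtb1 (0.987) and Rp23-357i14.1 (0.983). For Ifngr1 they were Vps37b (0.985), Tgif1 (0.964) and Srxn1 (0.963). For Il6st they were Kif13a (0.916), Oas1e (0.901) and Tmem106a (0.889). Some of these genes had low levels, so counting error weighs more on their profiles. Kif13a ran from 0.198 to 7.32 CPM, Pcsk1 from 0.534 to 6.57 CPM and Oas1e from 1.13 to 6.54 CPM. The rest were at 3.80 CPM or above in every library. Among the 7 chains themselves, Il7r and Il6ra had r 0.80, Il7r and Il21r -0.80, Il7r and Il4ra -0.78, and the neighbouring genes Il4ra and Il21r 0.50.

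In bulk RNA, fewer cells of a type and less RNA per cell cannot be told apart, and markers of other cells moved with the same conditions. All 12 T cell identity markers were read in every condition, with a summed level of 6949 CPM untreated, 3935 to 4442 CPM at 4 h and 5391 to 6421 CPM at 24 h. The 14 B cell markers summed to 872 CPM untreated, 671 to 695 CPM at 1 nM for 4 h, 896 to 898 CPM at 1 nM for 24 h, 468 to 485 CPM at 500 nM for 4 h and 279 to 341 CPM at 500 nM for 24 h. At 24 h, 12 of the 14 were lower at the higher dose and 0 higher (15.6% of all genes in each direction). In that comparison Il7r, Il6ra, Il6st and Ifngr1 were lower, Il4ra and Il21r were higher, and Il10ra did not pass. Of the 12 T cell identity markers, 5 were lower and 2 higher there. Pax5, a defining B cell factor, had 0 counts in the 4 libraries of 24 h. These include the libraries at 1 nM, where the sum of the B cell markers was above the untreated one. Of 13 measured myeloid markers, Ly6c1, which T cells also express, held most of the summed level at 500 nM and was singled out after its values were seen. The other 12 summed to 537 CPM untreated, 146 CPM at 1 nM for 4 h, 359 to 484 CPM at 1 nM for 24 h, 122 to 136 CPM at 500 nM for 4 h and 29.7 to 42.4 CPM at 500 nM for 24 h, where Itgam, S100a8 and S100a9 had 0 counts in both libraries. Itgam also had 0 counts in both libraries at 1 nM for 4 h, and S100a8 in both at 1 nM for 24 h. Natural killer cell markers (6) summed to 186 CPM untreated and 15.6 to 80.7 CPM treated, and dendritic cell markers (7) to 116 CPM and 9.26 to 49.7 CPM. The 3 CD4+ and regulatory T cell markers summed to 22.2 to 40.0 CPM over all libraries, and 6 erythroid markers to 91.7 CPM untreated and 4.24 to 56.6 CPM treated. B and myeloid cells also transcribe several of these chains, Il4ra, Il6ra and Il10ra among them, and the part of these cells in the results was not tested.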

How the data were processed

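RNA sequencing was done on 9 libraries of mouse splenic CD8+ T cells, each from the pooled RNA of 3 samples. The submitters' processing notes name CASAVA 1.8, Bowtie 0.12.4 and mm8. The counting tool, strand use and treatment of reads with several matches were not given in the sources used here. Whole-number counts of reads per RefSeq transcript were deposited, per the file headers. The deposited RPKM values are the authors', made from those counts, the exon length and 1 total per library. RPKM served for levels and ratios of genes, with no test.

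Of 24373 transcripts, the one with the highest mean count stood for each of 20418 symbols (2673 had several). Genes passing edgeR's filter (minimum count 10, total 15) numbered 13479. Counts were fitted with edgeR 4.0.16 in R 4.3.3 (TMM scaling, quasi-likelihood F test, Benjamini-Hochberg over all genes, threshold 0.05). The main fit had terms for cytokine, dose, time and untreated (4 residual degrees of freedom). Each interaction was added to it in turn (3 residual degrees of freedom). Comparisons of dose at each time, time at each dose, and each dose and time against untreated came from the fit with the dose by time term and were added after the data were seen. Alternatives were DESeq2 1.42.0, limma-voom (limma 3.58.1), other scalings, filters, transcript sums, further interaction terms and each library left out.

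On simulated counts for the 13479 genes, the dose test called 52 of 100 genes changed 2-fold, 78 of 100 changed 8-fold and 8 of 13279 unchanged ones. The dose by time test called 8 of 100, 65 of 100 and 7 of 13279. These rates describe the simulated counts only. The main fit cannot separate dose effects that differ between times, so they add to its residual spread. In the data, 1188 of the 13479 genes passed the dose by time test. Whether the dose test would recover as many changes where such effects are present was not tested.

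Members, gene lists, motifs and tests were chosen with earlier results of these data known. The named genes are the 7 members, up to 4 called genes per pathway list with the largest log2 fold change, and the 3 most correlated genes of each wide-ranging member (mean of at least 50 counts, 0.5 CPM added before the log). Il2rg, Il10rb, Ifngr2, Il13ra1, Il11ra1, Foxo1, Stat6, Socs3, Gfi1, Adam10, Adam17 and ligands near 0 were named besides for their known roles, after their values were seen. A list of response genes is not reported here.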

Additional observations from a re-analysis of the deposited data

Results flagged for a closer look

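The effect of dose on 3 chains differed between 4 h and 24 h by the test of the difference itself. Of all genes tested, 4.06% had a positive and 4.76% a negative difference past that test. The change from 1 nM to 500 nM was lower at 24 h than at 4 h by a log2 value of -2.58 for Il6st, whose direction turned, of -2.08 for Il7r, which was lower at 500 nM at both times, and of -1.19 for Il10ra, which was higher at 500 nM at 4 h. What lies behind these differences was not tested.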

How the results depend on the processing

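Of 126 log2 changes (7 chains in 18 comparisons), 30 passed the test, 19 of these passed under every alternative run, 0 reversed, and 11 were lost, each only when 1 library was left out. Of the others, 16 passed under some alternative. The number of chains past the test for dose was 3 in the main fit, 5 with DESeq2, 5 with a dose by time term, 6 with all interactions, and 1 to 4 with a library left out. For time it was 1, and 4 with a dose by time term or with all interactions. For 1 nM against untreated it was 0, 1 with DESeq2, and 2 with a dose by time term or with all interactions. For 500 nM against untreated it was 0, 1 with DESeq2, limma-voom, upper-quartile scaling, a mean of at least 50 counts or edgeR's newer deviances, 4 with a dose by time term or with all interactions, and 0 to 1 with a library left out. The cause was not tested. Of the changes that had not passed, 47 changed sign under some alternative; those in the comparisons given in full follow. With limma-voom, Il7r between IL-15 and IL-2 was -0.0030 on the log2 scale. With 1 library left out, log2 changes with dose ran from -0.62 to 0.36 for Il6st, and with time from -0.29 to 0.015 for Il4ra and from -0.38 to 0.077 for Il6ra. For IL-15 against IL-2 they ran from -0.38 to 0.47 for Il7r, -0.040 to 0.26 for Il4ra, -0.020 to 0.29 for Il21r, -0.32 to 0.18 for Il6ra, -0.30 to 0.66 for Il6st and -0.043 to 0.18 for Ifngr1. The dose by time interaction of Il4ra ran from -0.050 to 0.73, and the dose change at 4 h from -0.0050 to 0.77 for Il4ra and from -0.011 to 0.28 for Il21r. Without TMM scaling, levels moved by at most 6.62%. Comparisons with untreated could not be fitted without the untreated library. No paired analysis was possible because no condition has a second library.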
